A study of Saccharomyces cerevisiae with 12 samples.

Results

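Transcript levels of 42 budding yeast genes for heat shock proteins, chaperones and co-chaperones were followed in 4 groups of cultures. The genes were taken by their annotated symbol from a list of 42 names. The rule uses the symbol and no measured value, but the list was drawn up with earlier results of these data known. All 42 were found, on 43 probe sets, among the 5449 genes measured. By textbook location 29 are cytosolic, 7 mitochondrial, 5 of the endoplasmic reticulum (ER) and 1, HSF1, nuclear. SNL1, which is anchored in the ER membrane and faces the cytosol, was counted as cytosolic.

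Chaperones bind unfolded or aggregated proteins and help them fold, and most work as cycles. Hsp70 proteins bind and release substrates in step with ATP, J proteins deliver substrates to them, and nucleotide exchange factors reset them. Hsp90 finishes selected clients with its own co-chaperones, small heat shock proteins hold unfolded proteins, and disaggregases pull aggregates apart. In yeast, heat and high ethanol both induce many of these genes, largely through the heat shock factor Hsf1 and the stress factors Msn2 and Msn4.

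All cultures were BY4741, a haploid laboratory yeast of mating type a that also keeps its chromosomal SPT15, which encodes the TATA-binding protein. They carried p416-Tefmut2-SPT15, called the wild type here, or p416-Tefmut2-spt15-300, called the mutant, in YSC -URA medium, which selects for the plasmid. The plain medium had 0% ethanol and 20 g/L glucose, and the ethanol medium had 5% ethanol and 60 g/L glucose, so ethanol and glucose cannot be told apart. Cultures grew at 30 °C in closed tubes of 50 mL to an optical density near 0.4, and 3 biological replicates per group each went on an Affymetrix Yeast Genome 2.0 array.

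Mutant replicate 2 in the ethanol medium, which its title calls an outlier, was left out, so that group rests on replicates 1 and 3. The outlier correlated with the other arrays at 0.747 to 0.789, against 0.943 to 0.999 among the 11 arrays used and at least 0.993 within a group. As a sign of RNA quality, 3' probe sets of 8 control genes exceeded their 5' partners by a median, on the log2 scale, of 0.310 to 0.359 in the wild type and 0.240 to 0.266 in the mutant in the plain medium. With ethanol the figures were 0.361 to 0.435 and 0.379 to 0.400, and the part of RNA quality in the changes below was not tested. In group means, all 5 a-cell genes looked at read 9.79 or more on the log2 scale, and of 4 alpha-cell genes 3 read 8.51 or less and SAG1 9.90 to 10.06, where the background set by probe sets for another yeast was 7.24. Of the genes that BY4741 is known to lack in working form, MET17 read 7.68 to 7.90 and URA3, carried by the plasmid, 13.16 to 13.53. HIS3 at 11.31 to 11.81 read far above background, where a signal does not show that the gene works. LEU2 read 7.99 (wild type) and 8.07 (mutant) in the plain medium but 9.65 and 10.21 with ethanol, which goes against the known genotype. The part of these readings in the results was not tested. No member was below background in any group.

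The medium comparison asks how each strain's transcripts differ between the ethanol and the plain medium. In the wild type 23 of the 42 members rose and 7 fell in the ethanol medium, by limma with Benjamini-Hochberg adjustment across the 5449 genes and a threshold of 0.05. Over all genes 31.7% rose and 29% fell (60.8% called in all), against 54.8% and 16.7% of the members. In the mutant 26 members rose and 8 fell, or 61.9% and 19%, where 33.8% of all genes rose and 28.7% fell (62.5% called in all). The median log2 change of the members was 0.18 for the wild type and 0.27 for the mutant, beside 0.01 and 0.02 for all genes. These are bulk cultures, so a change in the number of cells that express a gene and a change in RNA per cell cannot be told apart. HSP26, SSA4, HSP31, SSE2 and HSP42 rose at least 2-fold in the wild type, and SSA4, HSP26 and HSP31 did so in the mutant, where 3.08% and 2.28% of all genes passed that fold upwards. The wild type count stayed at 30 or 31 calls when any single array was left out, and the mutant count of 34 ranged from 24 to 36. With all 12 arrays, the outlier included, the counts were 6 for the wild type and 5 for the mutant. Of all 5449 genes 408 and 744 were called then, against 3312 and 3404 in the main fit.

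**Figure D1:**
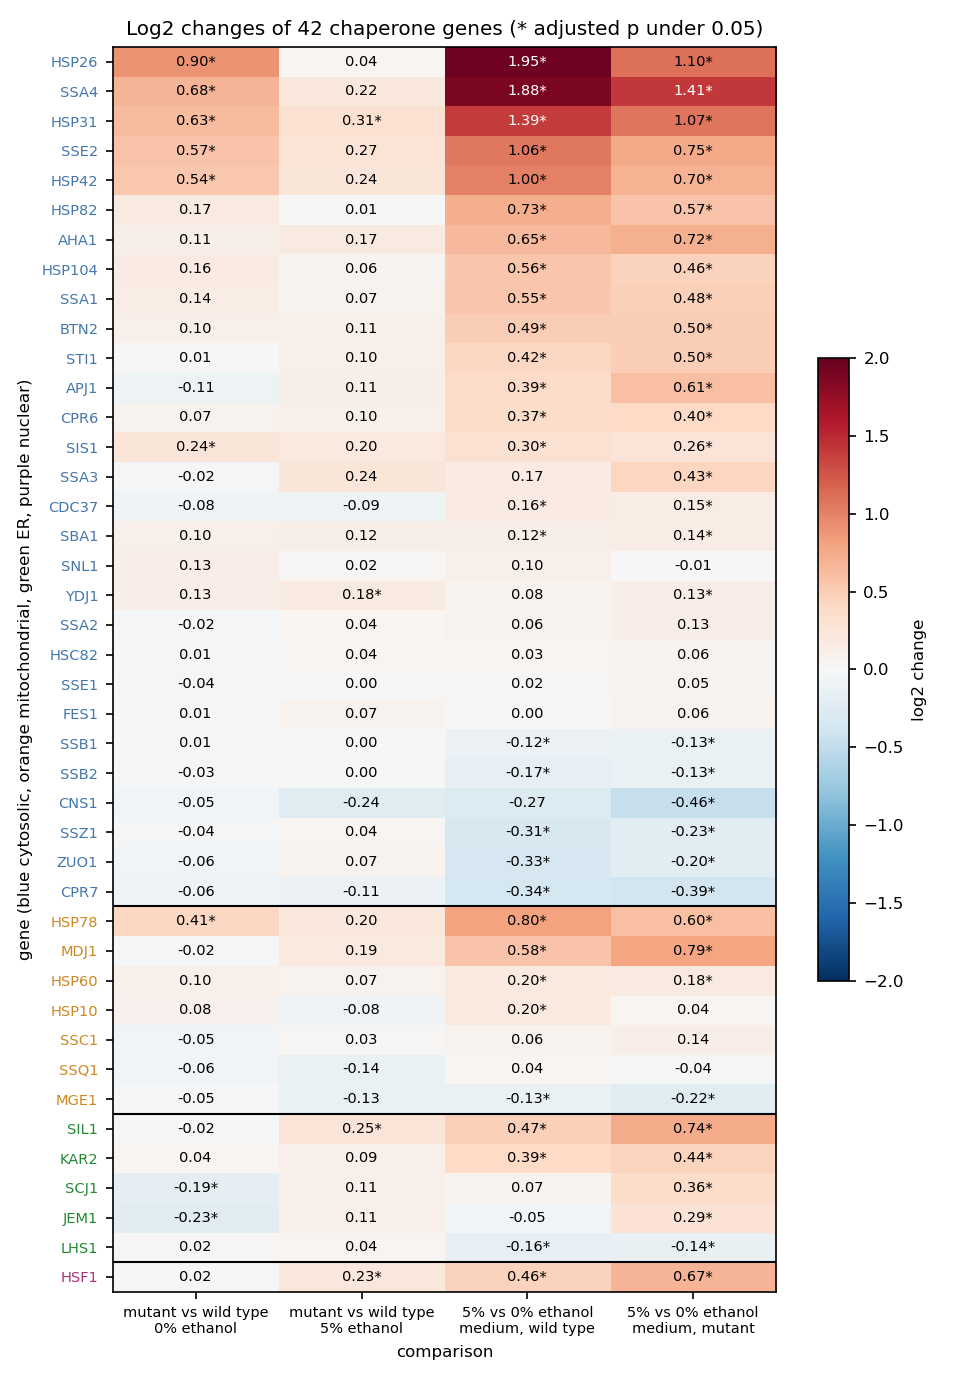
Log2 changes of the 42 genes (rows, by compartment and then by their medium response in the wild type) in the 4 comparisons between groups (columns), with a star at an adjusted p under 0.05. The medium columns hold 30 and 34 stars and reach 1.95 (HSP26), and the strain columns hold 9 and 4.

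Among the members, the strains responded to the medium in the same direction wherever both responses were called. Agreement in direction was not counted over all genes, of which 60.8% and 62.5% were called. It therefore cannot be read as particular to the members. The medium responses of the strains share no arrays. There were 22 members that rose in both strains and 7 that fell in both. SSA3, YDJ1, SCJ1 and JEM1 were called higher in the mutant and not in the wild type, CNS1 was called lower in the mutant alone, and HSP10 was called higher in the wild type alone. For none of these 6 did the difference between the responses pass the test. The other 7 members (HSC82, SSA2, SSE1, SSC1, SSQ1, FES1 and SNL1) were called in no comparison.

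**Figure D2:**
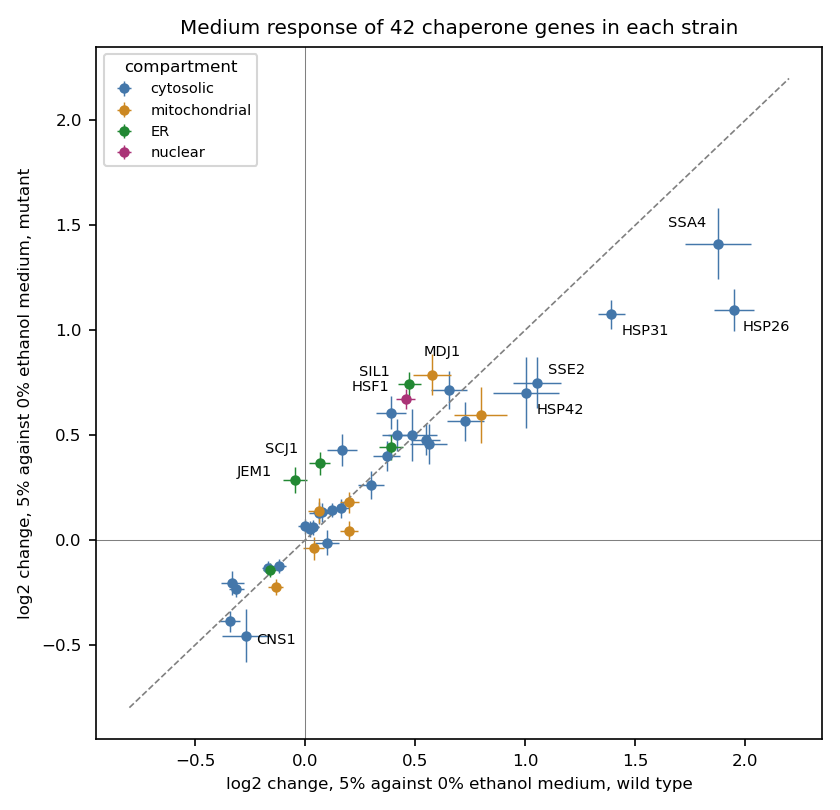
Log2 change between the ethanol and the plain medium in the wild type (x axis) and in the mutant (y axis) for each of the 42 genes, with standard errors as bars, colour for compartment and a dashed line where both changes are equal. HSP26 lies furthest below the line (1.95 against 1.10) and JEM1 furthest above it (-0.05 against 0.29).

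The strain comparison asks how the mutant form of SPT15 alters transcripts within a medium. In the plain medium 7 members were higher in the mutant and 2 were lower, beside 8.26% of all genes higher and 8.07% lower (16.3% called in all). As shares of the members these were 16.7% and 4.76%. HSP26, HSP42, HSP78, SSA4, SSE2, SIS1 and HSP31 were higher, and the J protein genes SCJ1 and JEM1 were lower. The median over the members was 0.01 and that over all genes was -0.03 on the log2 scale. This count depended on single arrays, as did that of all genes. It was 4 without wild type replicate 1 or 2 in the plain medium, 4 without mutant replicate 2 there and 3 without mutant replicate 3 there. With all 12 arrays it was 0, where 2 members had an unadjusted p under 0.05. In the same order 464, 478, 454, 472 and 13 of all genes were called, against 890 in the main fit. HSP26, HSP31 and SSE2 lost the call with all 12 arrays and in no other setting tried.

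With ethanol in the medium YDJ1, SIL1, HSF1 and HSP31 were higher in the mutant and no member was lower, where 5.73% of all genes were higher and 5.98% lower (11.7% called in all). By limma's unadjusted p under 0.05, 7 members (16.7%) were higher and 2 lower, beside 14.1% and 17.2% of all genes, so the share of higher members was near that of all genes. Each of the 4 calls ended in a fit of only the groups compared, with adjusted p-values of 0.235 for YDJ1, 0.218 for SIL1, 0.215 for HSF1 and 0.215 for HSP31. The count was also 0 with all 12 arrays (3 at an unadjusted p under 0.05), on leaving out wild type replicate 2 with ethanol (9) and on leaving out mutant replicate 3 with ethanol (7). It was 2 without wild type replicate 1 there, or without replicate 2 of either strain in the plain medium, and 9 without wild type replicate 3 in the ethanol medium. The strain and medium comparisons share arrays, so their changes are not independent of each other. Arrays that do not overlap between groups of 2 or 3 are common. Of all 5449 genes, 1871 lay wholly higher and 1772 wholly lower with ethanol in the wild type, and 2221 and 1951 in the mutant. Between the strains, 869 were wholly higher and 1457 lower in the mutant in the plain medium, and 1006 and 1171 with ethanol. For the members these pairs were 24 and 8, 32 and 8, 16 and 7, and 11 and 4.

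Small heat shock proteins hold unfolded proteins in a soluble state, and both genes for them were higher in the mutant in the plain medium and rose with the ethanol medium. HSP26 read 11.78, 11.84 and 11.71 on the log2 scale in the wild type and 12.49, 12.76 and 12.78 in the mutant in the plain medium. In the ethanol medium it read 13.55, 13.81 and 13.82 in the wild type and 13.73 and 13.82 in the mutant. The 3 groups other than the wild type in the plain medium all lay above it, and the strains overlapped in the ethanol medium. HSP26 was 1.86-fold higher in the mutant in the plain medium (log2 change 0.90, SE 0.090, adjusted p = 0.000201). It rose 3.86-fold with the medium in the wild type (adjusted p = 1.26e-07) and 2.14-fold in the mutant (adjusted p = 1.78e-05).

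The medium response of HSP26 was smaller in the mutant than in the wild type by 0.85 on the log2 scale (95% interval of the difference -1.16 to -0.55, adjusted p = 0.0207 for the interaction). HSP26 was the only 1 of the 42 members called in the interaction, where 0.385% of all genes had a higher and 0.826% a lower response in the mutant (1.21% called in all). By unadjusted p under 0.05, 5 members had a higher and 3 a lower response, beside 11.1% and 8.85% of all genes. The call was lost on leaving out wild type replicate 1, 2 or 3 in the plain medium (adjusted p = 0.0722, 0.0604 and 0.0501), mutant replicate 2 or 3 there (0.0732 and 0.0594), or mutant replicate 1 or 3 with ethanol (0.0624 and 0.0772), and on adding the outlier to make 12 arrays (0.685). The number of members called was 2 without wild type replicate 1 in the ethanol medium and 3 without wild type replicate 3 there. Of all genes 64 and 448 were called in those fits, against 66 in the main fit. HSP26 was above the 99th percentile of genes, 13.66 to 13.68, on 4 of 11 arrays, and the part of this bright end of the scale in the difference was not tested.

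HSP42, the other small heat shock protein gene, read 11.12, 11.17 and 11.16 (wild type) and 11.41, 11.81 and 11.85 (mutant) in the plain medium and 11.84, 12.30 and 12.32 (wild type) and 12.22 and 12.56 (mutant) in the ethanol medium. Replicate 1 was the lowest array of every group. The mutant was 1.45-fold higher in the plain medium (adjusted p = 0.0383), a call lost without any 1 of the wild type arrays there (adjusted p = 0.113, 0.0942 and 0.0829) or mutant replicate 2 or 3 (0.129 and 0.131). With the medium it rose 2.01-fold in the wild type (adjusted p = 0.000324) and 1.63-fold in the mutant (adjusted p = 0.00513). The mutant's response was not called without replicate 3 in the ethanol medium (adjusted p = 0.0605).

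**Figure D3:**
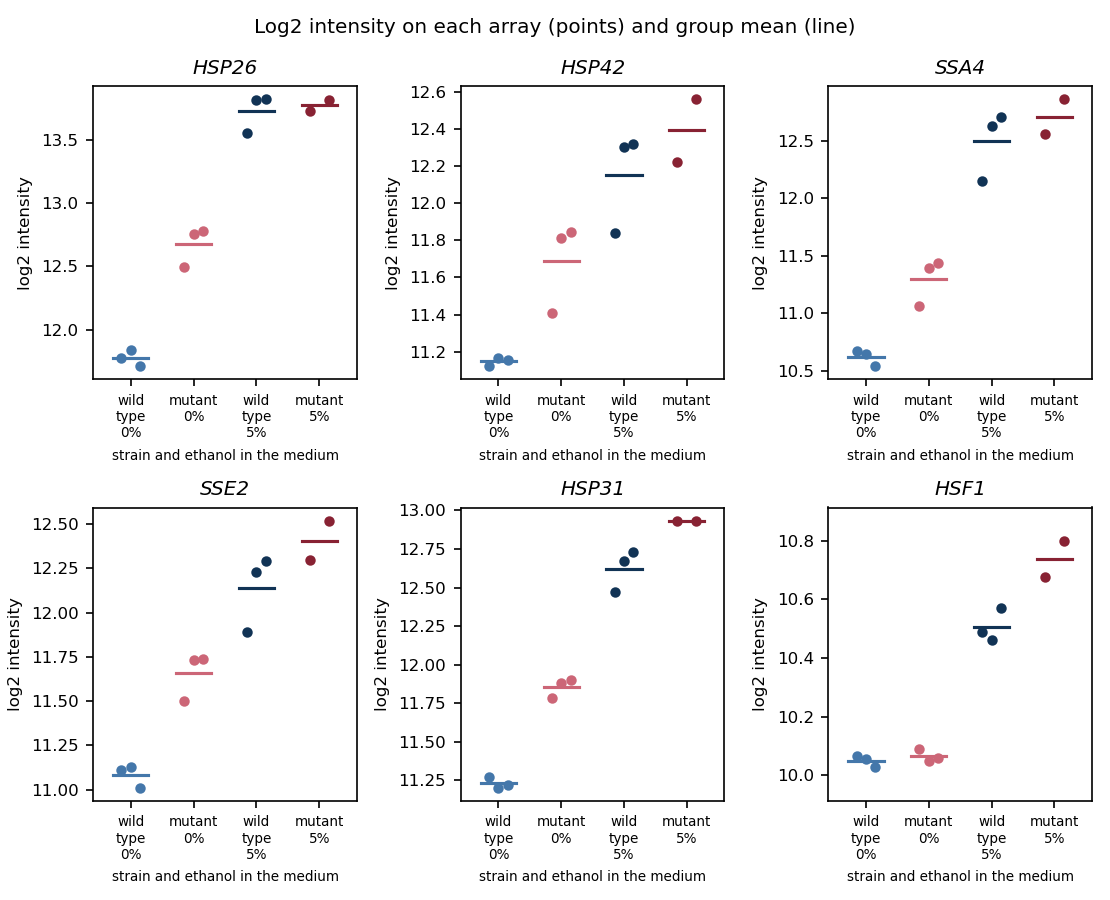
Log2 intensity on each of the 11 arrays (points) with the group mean (line) for HSP26, HSP42, SSA4, SSE2, HSP31 and HSF1, by strain and ethanol in the medium (x axis). In 5 of the 6 genes the mutant lies above the wild type in the plain medium, and the strains overlap for HSF1 there.

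The disaggregases rose with the medium in both strains. HSP104, which extracts proteins from cytosolic aggregates, read 12.42, 12.43 and 12.34 (wild type) and 12.41, 12.62 and 12.64 (mutant) in the plain medium and 12.79, 13.02 and 13.06 (wild type) and 12.92 and 13.10 (mutant) in the ethanol medium. The media did not overlap in either strain, while the strains overlapped in each medium. HSP104 rose by 0.56 (SE 0.085, adjusted p = 0.000337) on the log2 scale in the wild type and by 0.46 (SE 0.095, adjusted p = 0.00233) in the mutant. HSP78, its mitochondrial counterpart, read 11.24, 11.28 and 11.19 (wild type) and 11.43, 11.74 and 11.76 (mutant) in the plain medium and 11.77, 12.17 and 12.16 (wild type) and 12.13 and 12.34 (mutant) in the ethanol medium. The order of the group means was that of HSP42, with the wild type in the plain medium lowest and the mutant in the ethanol medium highest. HSP78 was 1.33-fold higher in the mutant in the plain medium (adjusted p = 0.0466) and rose 1.74-fold and 1.51-fold with the medium (adjusted p = 0.000325 and 0.00359). The strain call for HSP78 ended with array medians aligned (adjusted p = 0.0584), with quantile normalization repeated (0.0633) and without any 1 array of the wild type or mutant replicate 2 or 3 in the plain medium (0.0983 to 0.156).

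Of the 10 Hsp70 genes, 3 rose and 3 fell in the wild type (30% each way, near the 31.7% and 29% of all genes). Of the 4 cytosolic SSA genes, SSA1 and SSA4 were among those that rose. SSA4, the strongly heat-inducible form, read 10.67, 10.64 and 10.54 (wild type) and 11.06, 11.40 and 11.44 (mutant) in the plain medium and 12.15, 12.63 and 12.71 (wild type) and 12.56 and 12.86 (mutant) in the ethanol medium. Every array in the ethanol medium lay above every array in the plain medium. SSA4 rose 3.67-fold in the wild type (log2 change 1.88, SE 0.15, adjusted p = 5.62e-06) and 2.66-fold in the mutant (log2 change 1.41, SE 0.17, adjusted p = 9.58e-05). In the plain medium the mutant was 1.60-fold higher (adjusted p = 0.0149), which was lost without mutant replicate 2 or 3 there (adjusted p = 0.0587 and 0.0615).

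SSA1, a form expressed during growth that also responds to heat, read 12.87, 12.85 and 12.77 (wild type) and 12.92, 12.98 and 13.02 (mutant) in the plain medium and 13.24, 13.44 and 13.44 (wild type) and 13.36 and 13.54 (mutant) in the ethanol medium. It rose by 0.55 in the wild type (adjusted p = 7.83e-05) and by 0.48 in the mutant (adjusted p = 0.000436) on the log2 scale. SSA2, the close relative of SSA1 that is expressed constitutively, read 13.34, 13.32 and 13.33 (wild type) and 13.29, 13.31 and 13.33 (mutant) in the plain medium and 13.31, 13.45 and 13.43 (wild type) and 13.37 and 13.51 (mutant) in the ethanol medium. Its change of 0.06 in the wild type (95% interval -0.04 to 0.17) did not pass the test, and the media overlapped there. SSA3, a form with low expression in growing cells, read 10.13, 10.14 and 9.97 (wild type) and 10.03, 10.03 and 10.10 (mutant) in the plain medium and 10.26, 10.11 and 10.37 (wild type) and 10.44 and 10.52 (mutant) in the ethanol medium. SSA3 rose by 0.43 in the mutant (adjusted p = 0.00100), while the wild type's change of 0.17 was not called and its arrays overlapped between the media. In these near-identical genes cross-hybridization between SSA1 and SSA2 cannot be told apart from their own signal.

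The genes for ribosome-bound Hsp70 proteins fell. SSB1 and SSB2 encode near-identical chaperones of nascent chains, and SSZ1 encodes their partner in the ribosome-associated complex with the J protein Zuo1. SSB1 read 13.79, 13.82 and 13.81 (wild type) and 13.81, 13.81 and 13.83 (mutant) in the plain medium and 13.70, 13.70 and 13.66 (wild type) and 13.70 and 13.68 (mutant) in the ethanol medium, on a probe set that near-identical sequence shares. It lay above the 99th percentile of genes on 10 of 11 arrays. SSB1 fell by 0.12 in the wild type (adjusted p = 0.00610) and by 0.13 in the mutant (adjusted p = 0.00827) on the log2 scale. On its other probe set SSB1 changed by -0.24 and -0.19 (adjusted p = 0.000530 and 0.00399).

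SSB2 read 13.62, 13.64 and 13.63 (wild type) and 13.60, 13.59 and 13.59 (mutant) in the plain medium and 13.48, 13.46 and 13.44 (wild type) and 13.48 and 13.44 (mutant) in the ethanol medium. SSB2 fell by 0.17 in the wild type and by 0.13 in the mutant on the log2 scale (adjusted p = 0.000863 and 0.00619). Neither SSB gene overlapped between the media in either strain. SSZ1 read 12.83, 12.81 and 12.87 (wild type) and 12.80, 12.80 and 12.78 (mutant) in the plain medium and 12.57, 12.49 and 12.50 (wild type) and 12.53 and 12.59 (mutant) in the ethanol medium. Its partner ZUO1 read 13.30, 13.27 and 13.24 (wild type) and 13.26, 13.19 and 13.18 (mutant) in the plain medium and 13.04, 12.86 and 12.91 (wild type) and 13.05 and 12.96 (mutant) in the ethanol medium. SSZ1 fell by 0.31 and 0.23 (adjusted p = 4.16e-05 and 0.000634), and ZUO1 by 0.33 and 0.20 (adjusted p = 0.000365 and 0.0107), in the wild type and the mutant. All 4 genes of this ribosomal group were thus lower in the ethanol medium in both strains. In the mutant the falls of SSB1, SSB2 and ZUO1 were not called without replicate 3 of the ethanol medium (adjusted p = 0.0511, 0.0529 and 0.0916).

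The Hsp90 genes HSP82 and HSC82 are inducible and constitutive forms of the same chaperone. HSP82 read 12.07, 12.12 and 12.06 (wild type) and 12.14, 12.29 and 12.34 (mutant) in the plain medium and 12.63, 12.94 and 12.87 (wild type) and 12.74 and 12.90 (mutant) in the ethanol medium. HSC82 read 13.24, 13.26 and 13.22 (wild type) and 13.25, 13.25 and 13.26 (mutant) in the plain medium and 13.24, 13.30 and 13.28 (wild type) and 13.29 and 13.33 (mutant) in the ethanol medium. HSP82 did not overlap between the media in either strain, whereas HSC82 kept all 11 arrays between 13.22 and 13.33. HSP82 rose by 0.73 in the wild type (95% interval 0.54 to 0.91, adjusted p = 5.19e-05) and by 0.57 in the mutant (adjusted p = 0.000599) on the log2 scale. The change of HSC82 in the wild type was 0.03 (95% interval -0.03 to 0.10), whose upper end lies below the interval of HSP82.

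The Hsp110 genes SSE1 and SSE2, whose products reset Hsp70, are another such pair, and SSE2 alone was called. SSE2 read 11.11, 11.13 and 11.01 (wild type) and 11.50, 11.73 and 11.74 (mutant) in the plain medium and 11.89, 12.23 and 12.29 (wild type) and 12.29 and 12.52 (mutant) in the ethanol medium. SSE1 read 13.16, 13.16 and 13.15 (wild type) and 13.12, 13.11 and 13.13 (mutant) in the plain medium and 13.12, 13.21 and 13.20 (wild type) and 13.14 and 13.20 (mutant) in the ethanol medium. The strains did not overlap for SSE2 in either medium. SSE2 rose 2.08-fold in the wild type (adjusted p = 2.77e-05) and 1.68-fold in the mutant (adjusted p = 0.000578), and it was 1.49-fold higher in the mutant in the plain medium (adjusted p = 0.00705). In the ethanol medium the strain difference of 0.27 did not pass the test (adjusted p = 0.166). SSE1 changed by 0.02 with the medium in the wild type (95% interval -0.06 to 0.10) and was not called. FES1, a cytosolic exchange factor of another family, read between 11.44 and 11.54 on all 11 arrays, and SNL1 between 10.41 and 10.67, and neither was called in any comparison.

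**Figure D4:**
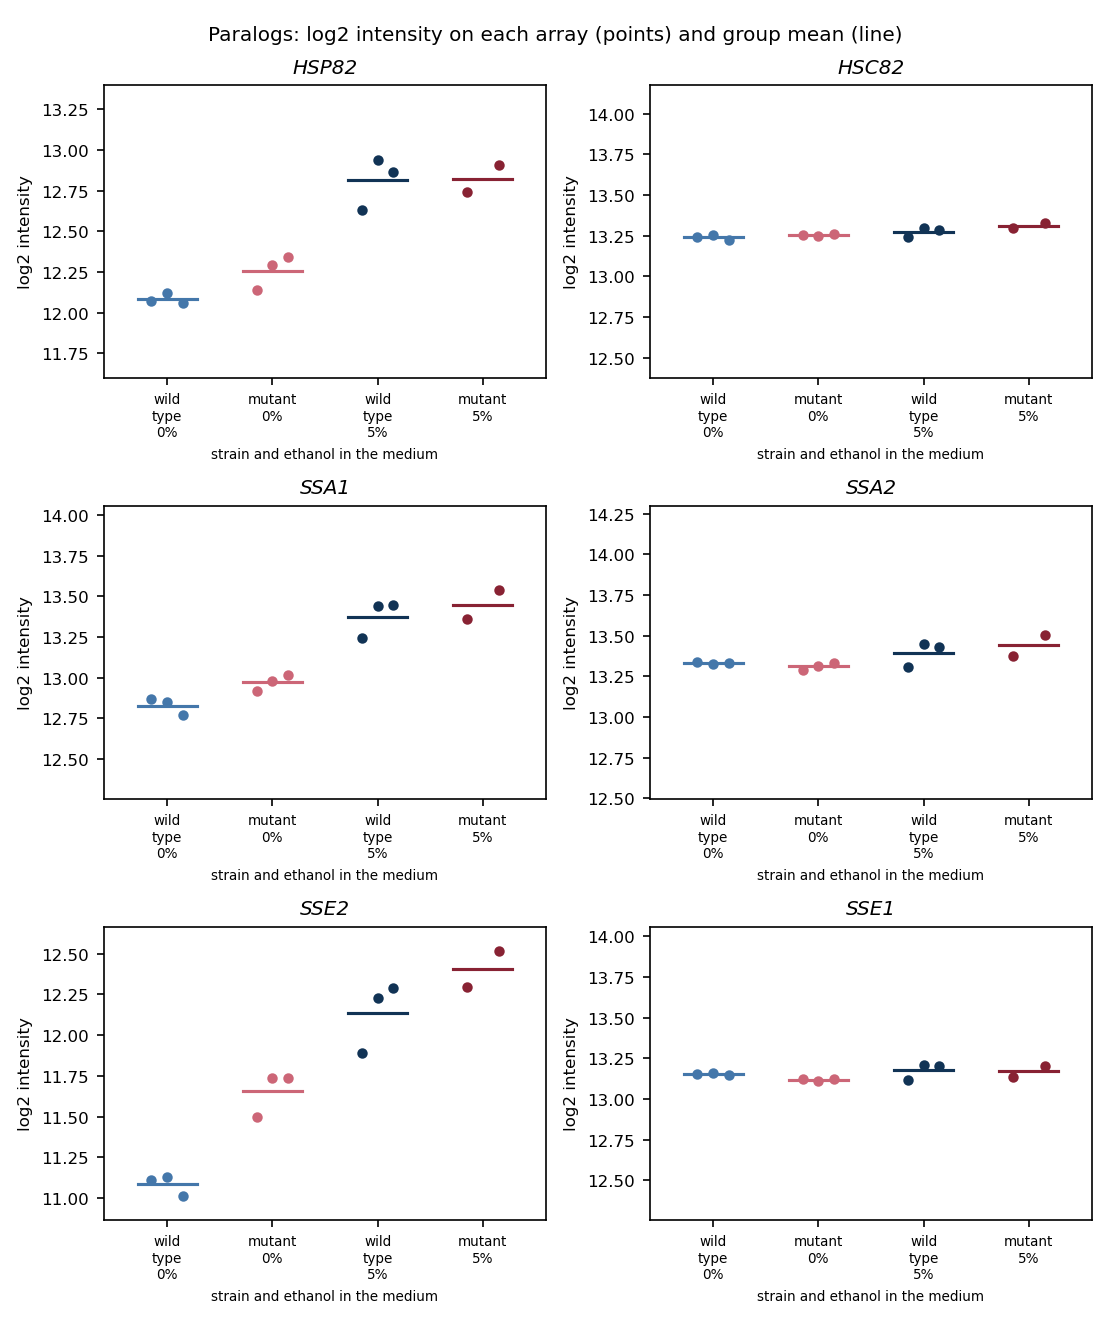
Log2 intensity on each array (points) with the group mean (line) for 3 pairs of paralogs, the inducible form on the left and the constitutive form on the right, by strain and ethanol in the medium (x axis). HSP82, SSA1 and SSE2 rise with the ethanol medium (0.73, 0.55 and 1.06 on the log2 scale in the wild type), and the changes of HSC82, SSA2 and SSE1 are 0.03, 0.06 and 0.02.

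Among the 7 co-chaperones of Hsp90, 5 rose and 1 fell in the wild type, and 5 rose and 2 fell in the mutant. As shares these were 71.4% and 14.3%, then 71.4% and 28.6%, beside 31.7% and 29%, then 33.8% and 28.7%, of all genes. AHA1, which stimulates the ATPase of Hsp90, read 11.78, 11.75 and 11.78 (wild type) and 11.80, 11.95 and 11.91 (mutant) in the plain medium and 12.26, 12.46 and 12.56 (wild type) and 12.48 and 12.72 (mutant) in the ethanol medium. AHA1 rose by 0.65 in the wild type and by 0.72 in the mutant on the log2 scale (adjusted p = 0.000100 and 0.000146). STI1, which hands clients from Hsp70 to Hsp90, read 12.74, 12.69 and 12.63 (wild type) and 12.65, 12.73 and 12.71 (mutant) in the plain medium and 12.95, 13.15 and 13.21 (wild type) and 13.12 and 13.27 (mutant) in the ethanol medium. Both genes separated the media in each strain without overlap. STI1 rose by 0.42 and 0.50 (adjusted p = 0.000500 and 0.000367).

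The cyclophilin pair CPR6 and CPR7, prolyl isomerases that bind Hsp90, moved in opposite directions. CPR6 read 12.48, 12.54 and 12.49 (wild type) and 12.56, 12.57 and 12.59 (mutant) in the plain medium and 12.71, 12.92 and 12.98 (wild type) and 12.92 and 13.03 (mutant) in the ethanol medium. CPR7 read 10.80, 10.76 and 10.85 (wild type) and 10.78, 10.72 and 10.72 (mutant) in the plain medium and 10.51, 10.51 and 10.36 (wild type) and 10.35 and 10.36 (mutant) in the ethanol medium. CPR6 rose by 0.37 in the wild type and by 0.40 in the mutant on the log2 scale (adjusted p = 0.000715 and 0.000949). CPR7 fell by 0.34 and by 0.39 (adjusted p = 0.000157 and 0.000177). Neither gene overlapped between the media.

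Smaller changes were seen for the p23 protein gene SBA1, which stabilises the closed form of Hsp90, and for CDC37, which brings kinases to it. SBA1 read 12.90, 12.86 and 12.85 (wild type) and 12.96, 12.98 and 12.97 (mutant) in the plain medium and 12.96, 12.97 and 13.03 (wild type) and 13.11 and 13.12 (mutant) in the ethanol medium, and rose by 0.12 and 0.14 (adjusted p = 0.00888 and 0.00643). CDC37 read 11.49, 11.45 and 11.51 (wild type) and 11.38, 11.42 and 11.42 (mutant) in the plain medium and 11.58, 11.72 and 11.62 (wild type) and 11.55 and 11.56 (mutant) in the ethanol medium, and rose by 0.16 and 0.15 (adjusted p = 0.00662 and 0.0160). The call of CDC37 in the mutant ended without replicate 1 of the plain medium (adjusted p = 0.0504) and without replicate 1 or 3 of the ethanol medium (0.0507 and 0.0741). CNS1, an essential co-chaperone that binds Hsp90 and Hsp70, read 11.10, 11.04 and 11.18 (wild type) and 11.19, 11.07 and 10.90 (mutant) in the plain medium and 10.92, 10.87 and 10.72 (wild type) and 10.82 and 10.37 (mutant) in the ethanol medium. The pair of mutant arrays in the ethanol medium lay further apart than those of any other member. CNS1 fell by 0.46 in the mutant (adjusted p = 0.00999, or 0.116 without replicate 3), and its change of -0.27 in the wild type was not called.

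Of the 7 J protein genes, 3 rose and 1 fell in the wild type, and 6 rose and 1 fell in the mutant. That is 42.9% and 14.3%, then 85.7% and 14.3%, where all genes had 31.7% and 29%, then 33.8% and 28.7%. APJ1, a cytosolic J protein linked to protein degradation, read 8.39, 8.34 and 8.43 (wild type) and 8.20, 8.38 and 8.28 (mutant) in the plain medium and 8.64, 8.87 and 8.82 (wild type) and 8.82 and 8.96 (mutant) in the ethanol medium. APJ1 rose by 0.39 and 0.61 on the log2 scale (adjusted p = 0.000910 and 0.000145). SIS1, an essential partner of the SSA proteins, read 12.52, 12.49 and 12.52 (wild type) and 12.68, 12.78 and 12.79 (mutant) in the plain medium and 12.71, 12.86 and 12.87 (wild type) and 12.92 and 13.11 (mutant) in the ethanol medium. The strains did not overlap for SIS1 in either medium. SIS1 was 1.18-fold higher in the mutant in the plain medium (adjusted p = 0.0250), and this call ended without any 1 array of the wild type or mutant replicate 2 or 3 there (adjusted p from 0.0574 to 0.0920). With the medium SIS1 rose by 0.30 in the wild type (adjusted p = 0.00186) and by 0.26 in the mutant (adjusted p = 0.00728, or 0.0869 without replicate 3 of the ethanol medium).

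YDJ1, the main general J protein of the cytosol, read 12.97, 12.91 and 12.92 (wild type) and 13.08, 13.06 and 13.04 (mutant) in the plain medium and 12.96, 13.01 and 13.05 (wild type) and 13.14 and 13.25 (mutant) in the ethanol medium. The mutant lay above the wild type without overlap in both media. YDJ1 was 1.14-fold higher in the mutant with ethanol (adjusted p = 0.0320), and the difference of 0.13 in the plain medium was not called (adjusted p = 0.0575). It rose by 0.13 with the medium in the mutant (adjusted p = 0.0270), which ended without replicate 3 of the ethanol medium (adjusted p = 0.232) and without replicate 2 or 3 of the plain medium (0.0620 and 0.0730). The change of 0.08 in the wild type did not pass the test. The strain call of YDJ1 was lost on leaving out wild type replicate 2 (0.0560) or mutant replicate 2 or 3 in the plain medium (0.0562 and 0.0506), or wild type replicate 1 or 2 (0.0727 and 0.0782) or mutant replicate 3 with ethanol (0.210). It was also lost with array weights (0.0770) and with the replicate block (0.0519), and the difference was -0.18 with all 12 arrays.

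HSP31, which encodes a small stress protein of the DJ-1 family, was called in all 4 comparisons between groups. It read 11.27, 11.20 and 11.22 (wild type) and 11.78, 11.88 and 11.90 (mutant) in the plain medium and 12.47, 12.67 and 12.73 (wild type) and 12.93 and 12.93 (mutant) in the ethanol medium. No group overlapped with another. HSP31 was 1.54-fold higher in the mutant in the plain medium (adjusted p = 0.000201) and 1.24-fold higher in the ethanol medium (adjusted p = 0.0272). It rose 2.62-fold with the medium in the wild type (adjusted p = 1.09e-07) and 2.11-fold in the mutant (adjusted p = 2.01e-06). Leaving out wild type replicate 2 in the ethanol medium ended the call between strains there (adjusted p = 0.0563), as did leaving out mutant replicate 1 or 3 (0.0737 and 0.135). BTN2, whose product sorts misfolded proteins to deposits, read 9.18, 9.37 and 9.48 (wild type) and 9.31, 9.47 and 9.53 (mutant) in the plain medium and 9.69, 10.05 and 9.74 (wild type) and 9.84 and 10.04 (mutant) in the ethanol medium. BTN2 rose by 0.49 in the wild type (adjusted p = 0.00367) and by 0.50 in the mutant (adjusted p = 0.00597, or 0.0630 without replicate 3 of the ethanol medium).

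HSF1 encodes the heat shock factor itself. It read 10.07, 10.06 and 10.03 in the wild type and 10.09, 10.05 and 10.06 in the mutant in the plain medium, where the strains overlapped, and 10.49, 10.46 and 10.57 and 10.68 and 10.80 in the ethanol medium, where they did not. HSF1 rose by 0.46 in the wild type (adjusted p = 1.31e-05) and by 0.67 in the mutant (adjusted p = 2.91e-06) on the log2 scale. These rises kept their calls in every setting tried, the 12 arrays included. On the outlier array HSF1 read 10.75, below that array's background of 10.78. The mutant's call with 12 arrays thus rests in part on a reading at background. In the ethanol medium HSF1 was 1.17-fold higher in the mutant (adjusted p = 0.0194), a call lost on leaving out wild type replicate 2 (0.0563) or mutant replicate 3 there (0.133). The interaction of 0.22 did not pass the test (adjusted p = 0.126).

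Among the 7 mitochondrial members, 4 rose and 1 fell in the wild type, and 3 rose and 1 fell in the mutant. These shares of 57.1% and 14.3%, then 42.9% and 14.3%, stand beside 31.7% and 29%, then 33.8% and 28.7%, of all genes. MDJ1, the J protein of the matrix, read 10.77, 10.67 and 10.64 (wild type) and 10.55, 10.73 and 10.75 (mutant) in the plain medium and 11.15, 11.30 and 11.35 (wild type) and 11.31 and 11.61 (mutant) in the ethanol medium. The media did not overlap in either strain. MDJ1 rose 1.49-fold in the wild type (adjusted p = 0.000327) and 1.73-fold in the mutant (adjusted p = 0.000115). MGE1, the exchange factor of the matrix Hsp70, read 11.95, 11.96 and 12.04 (wild type) and 11.92, 11.93 and 11.96 (mutant) in the plain medium and 11.83, 11.87 and 11.84 (wild type) and 11.69 and 11.73 (mutant) in the ethanol medium. MGE1 fell by 0.13 and 0.22 on the log2 scale (adjusted p = 0.00681 and 0.000796), and the wild type's call ended with array medians aligned (adjusted p = 0.0504).

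The chaperonin of the matrix is built from Hsp60 and its lid Hsp10. HSP60 read 13.32, 13.27 and 13.26 (wild type) and 13.37, 13.38 and 13.38 (mutant) in the plain medium and 13.42, 13.51 and 13.52 (wild type) and 13.49 and 13.62 (mutant) in the ethanol medium. HSP10 read 12.81, 12.80 and 12.86 (wild type) and 12.91, 12.92 and 12.89 (mutant) in the plain medium and 12.94, 13.08 and 13.05 (wild type) and 12.95 and 12.95 (mutant) in the ethanol medium. HSP60 rose by 0.20 in the wild type (adjusted p = 0.00297) and by 0.18 in the mutant (adjusted p = 0.0101, or 0.110 without replicate 3 of the ethanol medium). HSP10 rose by 0.20 in the wild type (adjusted p = 0.00208), and the mutant's change of 0.04 was not called. SSC1, the matrix Hsp70 that drives import, read 12.70 to 12.94, and SSQ1, its relative for iron-sulfur cluster assembly, read 9.64 to 9.90, and neither was called in any comparison.

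In the ER, 2 of the 5 members rose and 1 fell in the wild type, while 4 rose and 1 fell in the mutant. Their shares were 40% and 20%, then 80% and 20%, against 31.7% and 29%, then 33.8% and 28.7%, of all genes. KAR2, the Hsp70 of the ER, read 13.02, 13.02 and 12.89 (wild type) and 13.03, 13.05 and 12.99 (mutant) in the plain medium and 13.26, 13.41 and 13.44 (wild type) and 13.44 and 13.48 (mutant) in the ethanol medium. Every array with ethanol lay above every array without it. KAR2 rose by 0.39 in the wild type and by 0.44 in the mutant on the log2 scale (adjusted p = 0.000187 and 0.000211). SIL1, an exchange factor of Kar2, read 10.32, 10.28 and 10.27 (wild type) and 10.24, 10.26 and 10.32 (mutant) in the plain medium and 10.65, 10.82 and 10.81 (wild type) and 11.07 and 10.95 (mutant) in the ethanol medium. The strains overlapped for SIL1 in the plain medium and not in the ethanol medium. SIL1 rose 1.39-fold in the wild type (adjusted p = 4.56e-05) and 1.67-fold in the mutant (adjusted p = 7.09e-06), and was 1.19-fold higher in the mutant with ethanol (adjusted p = 0.0287). That strain call was lost on leaving out mutant replicate 1 or 3 with ethanol (adjusted p = 0.107 and 0.0709) and narrowly for 4 other single arrays (0.0503 to 0.0515).

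SCJ1 and JEM1, the J protein genes among the ER members, were lower in the mutant in the plain medium. None of 13 other J protein genes, HLJ1, ERJ5 and SEC63 of the ER among them, was called there by limma. At an unadjusted p under 0.05, 3 of these 13 were lower (23.1%), beside 17.7% of all genes. SCJ1, a soluble J protein of the lumen, read 11.36, 11.34 and 11.25 (wild type) and 11.20, 11.11 and 11.05 (mutant) in the plain medium and 11.42, 11.38 and 11.34 (wild type) and 11.45 and 11.53 (mutant) in the ethanol medium. JEM1, which is anchored in the ER membrane and also acts in nuclear fusion, read 9.96, 9.94 and 9.86 (wild type) and 9.67, 9.76 and 9.65 (mutant) in the plain medium and 9.81, 9.85 and 9.95 (wild type) and 9.90 and 10.06 (mutant) in the ethanol medium. For both genes the mutant arrays lay below the wild type arrays in the plain medium. SCJ1 was 1.14-fold lower (adjusted p = 0.0249) and JEM1 1.17-fold lower (adjusted p = 0.0235) in the mutant there. Both calls were lost without wild type replicate 1 or 2 in the plain medium, with an adjusted p of at least 0.0904 for SCJ1 and of 0.0914 and 0.0804 for JEM1. They were also lost without mutant replicate 3 (0.0973 and 0.0887), that of SCJ1 without replicate 2 (0.0846), and that of JEM1 without replicate 1 (0.0690), with array medians aligned (0.0617) and with quantile normalization repeated (0.0508).

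SCJ1 rose with the medium in the mutant by 0.36 and JEM1 by 0.29 on the log2 scale (adjusted p = 0.000346 and 0.00307), while the wild type's changes of 0.07 and -0.05 were not called. The interaction of 0.30 for SCJ1 (95% interval 0.14 to 0.46, adjusted p = 0.0862) and of 0.33 for JEM1 (95% interval 0.15 to 0.52, adjusted p = 0.0956) did not pass the test. The strain difference in the plain medium, the mutant's medium response and the interaction all use the mutant arrays of the plain medium. LHS1, the large Hsp70 relative that acts as an exchange factor for Kar2, read 10.08, 10.06 and 10.07 (wild type) and 10.12, 10.09 and 10.07 (mutant) in the plain medium and 9.88, 9.93 and 9.91 (wild type) and 9.92 and 9.98 (mutant) in the ethanol medium. LHS1 fell by 0.16 in the wild type and by 0.14 in the mutant (adjusted p = 0.00153 and 0.00580).

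By compartment, 16 of the 29 cytosolic members rose and 5 fell in the wild type's medium response, beside 4 and 1 of the 7 mitochondrial and 2 and 1 of the 5 ER members. Those that rose were 55.2%, 57.1% and 40% of their compartment, where 31.7% of all genes rose. In the mutant the counts were 18 and 6, 3 and 1, and 4 and 1, and the shares that rose were 62.1%, 42.9% and 80%, against 33.8% of all genes. The ER share in the wild type and the mitochondrial share in the mutant differ from that of all genes by less than 1 gene. The median log2 change was 0.17 for cytosolic, 0.20 for mitochondrial and 0.07 for ER members in the wild type, and 0.26, 0.14 and 0.36 in the mutant. Between the strains in the plain medium 6 cytosolic and 1 mitochondrial member were higher and 2 ER members were lower, with medians of 0.07, -0.02 and -0.02, where 8.26% of all genes were higher and 8.07% lower. For the strains with ethanol the medians were 0.07, 0.03 and 0.11, and 2 cytosolic, 1 ER and the nuclear member were higher, beside 5.73% of all genes. With all 12 arrays the medians of all 3 compartments were below 0 between the strains with ethanol (-0.26, -0.31 and -0.24), for the medium in the mutant (-0.043, -0.18 and -0.058) and for the interaction (-0.36, -0.38 and -0.17). The medians of all genes in that fit were also below 0, at -0.27, -0.25 and -0.26 in the same order. Members of a compartment were not tested as a set, and compartments of 5 and 7 genes give coarse medians.

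The interaction was positive for all 5 ER members, from 0.02 to 0.33 with a median of 0.27, against medians of 0.01 for the cytosolic and -0.08 for the mitochondrial members and 0.01 for all genes. No ER member passed the test of the interaction, and 3 of the 5 had an unadjusted p under 0.05 by limma, beside 11.1% of all genes with a higher mutant response. The 9 other ER folding genes had a median of 0.03 with 1 of them at that cutoff. With all 12 arrays the median of the ER members was -0.17 and that of all genes was -0.26. As the median deviation from each gene's mean over the arrays, the ER members stood at 0.04, 0.03 and -0.06 in the wild type and -0.15, -0.14 and -0.21 in the mutant in the plain medium. With ethanol they stood at 0.08, 0.07 and 0.10 and at 0.14 and 0.21. This median was lowest in the mutant in the plain medium. By group mean that group was the lowest for SCJ1, JEM1 and, with arrays that overlap the wild type, SIL1, whereas KAR2 was lowest in the wild type in the plain medium and LHS1 was highest in the mutant there. For the cytosolic members, the 6 arrays of the plain medium lay between -0.14 and -0.03, and the 5 of the ethanol medium between 0.04 and 0.32.

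**Figure D5:**
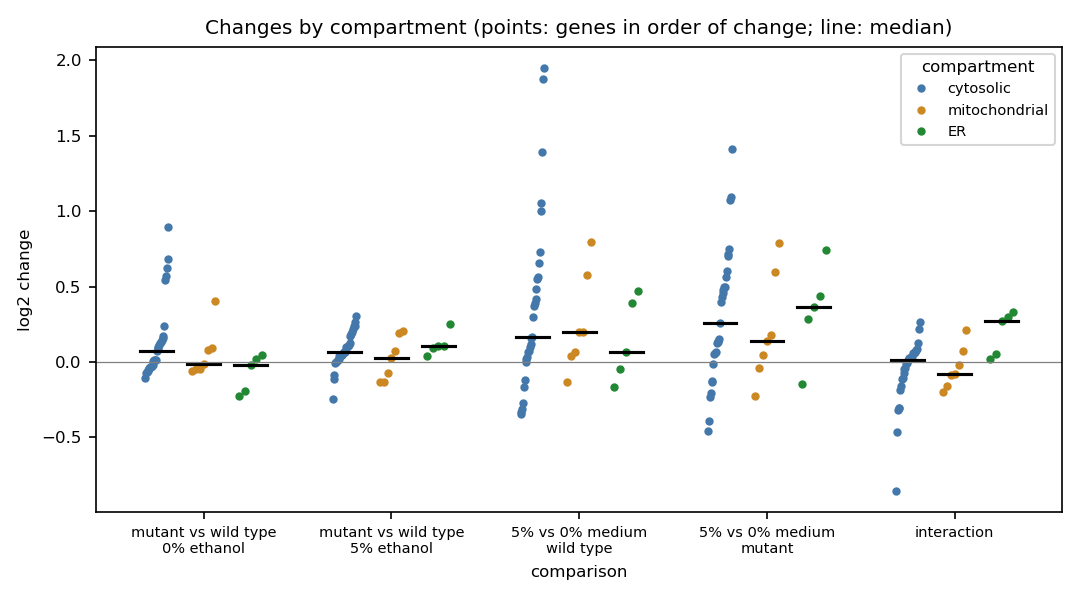
Log2 change of each cytosolic, mitochondrial and ER member (points, in order of change) with the median of its compartment (line) in the 4 comparisons between groups and in the interaction (x axis). The ER members all lie above 0 in the interaction (median 0.27), and HSP26 is the lowest cytosolic point there (-0.85).

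Members were often low on the same array. Replicate 1 was the lowest array of its group for 24 of the 42 members in the mutant in the plain medium, for 32 in the wild type in the ethanol medium and for 36 in the mutant in the ethanol medium, against 7 in the wild type in the plain medium. Over all genes those shares were 31.9%, 30.9%, 46.5% and 21.3%. The part of this in the changes above was not tested. The members lie on 15 of the chromosomes, and HSP104 and SSA2 are separated by 1 gene on chromosome XII.

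Other genes of protein folding were listed for comparison, and 51 of 53 were measured. Of these 15 rose and 22 fell with the medium in the wild type, and 17 rose and 17 fell in the mutant. The 15 include MDJ2, which was below background in every group. As shares these were 29.4% and 43.1%, and then 33.3% each way, beside 31.7% and 29% and then 33.8% and 28.7% of all genes. All 4 measured genes of a list of other heat shock genes rose in both strains, among them CUR1, a paralog of BTN2 (0.85 and 0.94 on the log2 scale, adjusted p = 0.000113 and 0.000150). SNO4, a paralog of HSP31 whose probe set near-identical sequence also binds, was below background in the wild type in the plain medium and rose at least 2.7-fold in that strain with ethanol (adjusted p = 6.13e-06). In the ER, ERO1, which oxidises the protein disulfide isomerase, rose by 0.59 and 0.62 (adjusted p = 4.88e-06 and 9.88e-06). Of the 9 other ER folding genes, ERO1 among them, 5 rose in each strain (55.6%). In the wild type 3 of the 9 fell (33.3%), and in the mutant 1 fell (11.1%).

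CCT is the cytosolic chaperonin, which folds actin and tubulin. Of its 8 genes 6 fell (75%) and none rose in the wild type (median -0.12), and 1 fell and 1 rose in the mutant (12.5% each way, median -0.02). Of all genes 29% fell and 31.7% rose in the wild type, and 28.7% fell and 33.8% rose in the mutant. CCT7 fell by 0.27 and 0.19 (adjusted p = 0.000292 and 0.00418). The interaction was positive for all 8 CCT genes (median 0.13), with none called by limma and 4 at an unadjusted p under 0.05 (11.1% of all genes were higher at that cutoff). Prefoldin, which passes clients to CCT, had 4 of 6 genes lower in the wild type (66.7%) and 5 of 6 in the mutant (83.3%). PFD1 fell by 0.46 and 0.96 (adjusted p = 0.0304 and 0.00123). Among 13 other J protein genes 4 rose and 7 fell in the wild type (30.8% and 53.8%) and 3 rose and 8 fell in the mutant (23.1% and 61.5%). Of all genes 31.7% rose and 29% fell, then 33.8% and 28.7%. MDJ2, below background in every group, was 1 of the 4 that rose in the wild type. XDJ1 rose by 0.45 and 0.65 (adjusted p = 2.88e-05 and 7.28e-06).

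Between the strains, 4 of the 51 were higher and 5 lower in the mutant in the plain medium, and 3 were higher and 4 lower in the ethanol medium. These are 7.84% and 9.80%, and then 5.88% and 7.84%, near the 8.26% and 8.07%, and 5.73% and 5.98%, of all genes. TAH1, a co-chaperone of Hsp90, was higher in the mutant in both media (0.41 and 0.25, adjusted p = 0.000611 and 0.0237). PDI1, the protein disulfide isomerase of the ER, was higher in both (0.21 and 0.17, adjusted p = 0.00483 and 0.0321), and its relative EUG1 was lower in both (-0.30 and -0.27, adjusted p = 0.00517 and 0.0264). None of the 51 genes was called in the interaction by limma. At an unadjusted p under 0.05, 9 had a higher (17.6%) and 2 a lower (3.92%) mutant response, beside 11.1% and 8.85% of all genes.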

How the data were processed

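Total RNA of 12 cultures was labelled with biotin and measured on 12 arrays, per the labels' protocols. The authors deposited a table of intensity values, 10928 probe sets by 12 arrays, made with RMA per the submitters' processing notes. Its version, settings and array set were not stated there. Values were linear, so log2 was taken with no pseudocount. Of 5498 probe sets matched to single genes through the platform annotation and the RefSeq gene table, the brightest per gene was kept for 47 genes with several, leaving 5449 genes. Background was the 95th percentile, on each array, of the 1746 probe sets for S. pombe.

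Groups came from titles. Comparisons were made with limma 3.58.1 in R 4.3.3, 1 mean per group, 11 arrays, 7 residual and 2.73 prior degrees of freedom, and Benjamini-Hochberg adjustment over all genes; a gene was called at an adjusted p under 0.05. The members and lists were chosen with earlier results of these data known. All 42 members are named, with every array's value for members called in any comparison, for HSF1 and for paralogs described; up to 3 called genes per comparison or 2 per list of the other folding genes are named. Array data hold no read depth, and precision is limited by how many arrays a group has. Alternatives were all 12 arrays with or without array weights, a replicate block, aligned medians, repeated quantile normalization, leaving out the dimmest 25% of genes, a variance trend with robust fitting, probe set means, only the groups compared, and each array left out. Promoter and protein sequences were not used here.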

Additional observations from a re-analysis of the deposited data

Results flagged for a closer look

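The medium response of HSP26 differed between the strains by the test of the difference itself, the interaction term. It was 1.95 for the wild type and 1.10 for the mutant on the log2 scale, a difference of -0.85 (adjusted p = 0.0207 by limma). The call was lost in 8 of 19 other settings, with an adjusted p of 0.0501 to 0.0772 without single arrays and 0.685 with all 12. HSP26 was also above the 99th percentile of genes on 4 of 11 arrays. All 3 wild type arrays and both mutant arrays in the ethanol medium lay above every array of the same strain in the plain medium. This separation concerns the response within each strain and not the difference between the strains.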

How the results depend on the processing

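Members called numbered 9 and 4 between the strains in the plain and the ethanol medium, 30 and 34 for the medium in the wild type and the mutant, and 1 for the interaction. With all 12 arrays these were 0, 0, 6, 5 and 0, and 2, 3, 12, 11 and 1 members had an unadjusted p under 0.05. With array weights and all 12 arrays, 19 members differed between the strains in the plain medium and 6 in the interaction. The other counts were 3, 31 and 34. That fit called 2729 of all genes between the strains in the plain medium and 486 in the interaction. The main fit called 890 and 66, so calls rose over all genes and not for the members alone. With only the groups compared, the strain count was 0 in the ethanol medium (6 at an unadjusted p under 0.05), and 13 in the plain medium. In those fits 6 and 1233 of all genes were called. Leaving out single arrays gave 3 to 10 and 0 to 9 between the strains, 30 to 31 and 24 to 36 for the medium and 0 to 3 for the interaction. Over all genes the ranges were 454 to 974 and 72 to 1326, 2932 to 3339 and 2535 to 3484, and 16 to 448. The other settings (aligned medians, repeated quantile normalization, without the dimmest 25% of genes, variance trend and robust fitting, probe set means) kept all 5 counts within 1.5 times.

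With all 12 arrays 11 values changed sign. Between the strains in the ethanol medium these were YDJ1 (-0.18), SIL1 (-0.049) and HSP31 (-0.0048). For the medium in the mutant they were HSP60 (-0.14), YDJ1 (-0.23), SIS1 (-0.22), SCJ1 (-0.10), JEM1 (-0.058), CPR6 (-0.043), SBA1 (-0.24) and CDC37 (-0.36). The medians of all genes in that fit were -0.27 and -0.25 in these comparisons, and of the reversed values only that of CDC37 lay below. The cause was not tested beyond the added array itself. Over the called members and all alternatives, 1413 values kept their direction and call, 131 lost the call and 11 reversed. Of 297 compartment medians 24 moved by more than the spread between replicates, 9 of them with all 12 arrays. Between the strains with ethanol the mitochondrial median was -0.028 without wild type replicate 1 there, 0.08 without mutant replicate 1 and -0.026 without mutant replicate 3. For the medium in the mutant the cytosolic median was 0.15 without the dimmest genes, 0.35 without mutant replicate 1 with ethanol and 0.17 without its replicate 3. Among all genes called between the strains in the plain medium, 50.6% were higher, and 64.2% with array medians aligned.

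The replicate numbers were not taken to pair the samples, since not every pair with the same number correlated over 0.1 in deviations from the group means. Of 15 such pairs 11 did (-0.247 to 0.709), against 9 of 30 pairs with other numbers (-0.629 to 0.476). All 6 pairs of replicate 1 did (0.105 to 0.709), 1 of 3 of replicate 2 and 4 of 6 of replicate 3, so arrays numbered 1 share some deviation. The 2 mutant arrays with ethanol deviate from their mean by equal and opposite amounts. Their correlations therefore mirror each other, and the pairs are not independent evidence. Of the 11 arrays 6 correlated best with their own number. With the replicate block the counts were 9, 4, 31, 36 and 1, and YDJ1 was not called between the strains in the ethanol medium (adjusted p = 0.0519). Signal near the bright end of the scale limits what HSP26 and SSB1 can show, and the mutant with ethanol has only 2 arrays.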

Other observations

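The array left out of the tests, the mutant's replicate 2 with ethanol, read 40 of the 42 members below the mean of the other arrays of its group. The median difference was -1.03 on the log2 scale for the members and -0.82 for all genes, of which 890 of 5449 read higher on it. SSA3 read higher on that array, 11.30 against 10.48, and HSF1 read 10.75 against 10.74. Background on that array was 10.78, where the 11 arrays used had a mean of 7.24. HSF1 thus read below background there and SSA3 not far above it, so neither reading shows that expression was kept. By compartment the median difference was -1.04 for cytosolic, -1.06 for mitochondrial and -1.03 for ER members.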
